A study of Mus musculus with 4 samples.

Results

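The 10 genes described here encode dynein arm preassembly factors: Dnaaf1, Dnaaf2, Dnaaf3, Dnaaf5, Zmynd10, Spag1, Ccdc103, Cfap298, Cfap300 and Daw1. They were taken by symbol from the 22583 features of a single-cell RNA-seq matrix of mouse trachea, and 10 of 10 were present, each as 1 feature. The list of symbols was drawn up by function, with earlier results of these data known, and no threshold on a measured value was applied.

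The samples were bgh mice with a mutation in Spef2, Cfap54gt/gt mice with a gene-trapped Cfap54, nm1054 mice lacking Cfap221, and wild-type mice, all adults of 5 to 8 months on the 129S6/SvEvTac background. The 3 mutant lines are models of primary ciliary dyskinesia in which the central pair of the ciliary axoneme is affected. Each genotype was 1 library of cells pooled from 6 tracheas (5 for bgh), dissociated with pronase, plated to remove fibroblasts and cleared of dead cells, so the shares of cell types reaching a library depend on these steps. The matrix names its libraries 1 to 4, and the sources used here do not tie a number to a genotype. Libraries are therefore given by number, mutant and wild-type cells are not compared, and the 4 libraries are not replicates of 1 condition.

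Motile cilia beat because rows of outer and inner dynein arms on the axoneme slide neighbouring microtubules past each other. Dynein arms are large multi-subunit motors that are folded and put together in the cytoplasm before they enter the cilium, a process that uses Hsp90 and Hsp70 chaperones and dedicated assembly factors. Loss of such factors leaves cilia without dynein arms and causes primary ciliary dyskinesia. In the airway, multiciliated cells carry these cilia, and deuterosomal cells are their precursors that are multiplying centrioles.

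The windows below run from 250 bases before to 50 bases after a RefSeq transcription start, on build GRCm38.p6, which is not the GRCm39 build named in the submitters' processing notes. They are shown because the 10 genes were high in the same cells, and the X-box is the element bound by the Rfx factors of ciliated cells. A window was matched for 8 members, all but Dnaaf1 and Spag1. Capitals mark the X-box core GTTGCC on either strand, or a facing pair of cores with the bases between them.
Cfap298, chr16:90934800-90935099, minus strand: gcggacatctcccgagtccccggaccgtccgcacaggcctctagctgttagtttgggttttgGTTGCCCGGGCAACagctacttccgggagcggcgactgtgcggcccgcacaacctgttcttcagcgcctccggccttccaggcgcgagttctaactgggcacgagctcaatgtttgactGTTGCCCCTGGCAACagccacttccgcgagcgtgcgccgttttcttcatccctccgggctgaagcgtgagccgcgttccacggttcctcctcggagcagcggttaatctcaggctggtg
Zmynd10, chr9:107547054-107547353, plus strand: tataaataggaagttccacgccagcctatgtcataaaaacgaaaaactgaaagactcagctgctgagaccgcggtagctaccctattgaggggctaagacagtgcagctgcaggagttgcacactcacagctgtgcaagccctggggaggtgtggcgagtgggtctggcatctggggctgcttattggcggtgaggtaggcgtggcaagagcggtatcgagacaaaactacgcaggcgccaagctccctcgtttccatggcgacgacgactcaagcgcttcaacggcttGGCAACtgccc
Ccdc103, chr11:102880974-102881273, plus strand: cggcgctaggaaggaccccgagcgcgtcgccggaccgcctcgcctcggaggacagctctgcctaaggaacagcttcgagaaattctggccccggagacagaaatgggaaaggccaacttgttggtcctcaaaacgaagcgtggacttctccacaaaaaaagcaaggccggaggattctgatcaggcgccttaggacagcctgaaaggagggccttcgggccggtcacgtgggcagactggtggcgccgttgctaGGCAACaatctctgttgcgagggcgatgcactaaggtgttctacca
Dnaaf3, chr7:4532416-4532715, minus strand: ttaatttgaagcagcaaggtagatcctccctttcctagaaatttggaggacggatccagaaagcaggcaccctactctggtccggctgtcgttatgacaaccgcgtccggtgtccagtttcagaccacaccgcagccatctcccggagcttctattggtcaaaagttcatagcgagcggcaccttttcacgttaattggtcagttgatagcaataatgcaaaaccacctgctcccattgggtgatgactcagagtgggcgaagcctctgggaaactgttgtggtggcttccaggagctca

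The core GTTGCC, searched on both strands, stood in the windows of 6 of the 8 matched members (Ccdc103, Cfap298, Cfap300, Dnaaf2, Dnaaf5 and Zmynd10). It was in 14.1% of 27025 genes with a window. A facing pair, GTTNCC then GGNAAC with 1 to 3 bases between them, was found in Cfap298 alone among the 8, at 2 places, against 0.903% of all genes. These pairs overlap the cores counted before. The forkhead motif GTAAACA, on either strand, was in 0 of the 8 and in 4.05% of all genes. Daw1 and Dnaaf3 held none of the 3 motifs in their windows. These are matches of letters in 1 window per gene or a few, and binding was not measured.

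The counts are unique molecular identifiers (UMIs) from 3' tags, one per captured transcript, so levels were not divided by transcript length. Levels are given as CPM, a gene's UMIs scaled by the total UMIs of its class in that library. The 4 libraries held 39658153 to 53491773 UMIs in 4202 to 7360 barcodes, and 19471 cells were kept after filtering. Libraries shared 52 barcode sequences. Cells were clustered without the members and 12 other preassembly factors, and clusters were named from marker genes. Ciliated-like cells numbered 3942 in clusters 3, 7 and 12 and held 10 of 10 ciliated markers, summed to 8616 to 10631 CPM per library, against 104 to 166 CPM in basal-like cells. Other epithelial classes were secretory-like (6403 cells), basal-like (5130), tuft-like (263) and hillock-like (147). A cluster of 1930 cells with both ciliated and secretory markers was kept apart as mixed, and a cluster of 768 cells with 10 of 10 ciliated markers stayed unnamed because its cells were shallow and no ciliated marker was among its top 10 genes. Library 1 stood apart in depth, with a median of 4287.5 UMIs per ciliated-like cell, against 2215.5 to 2443 in libraries 2 to 4.

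Of the cell classes named from clusters, ciliated-like cells had the highest summed level of preassembly factors in every library. Libraries 1 to 4 gave 679, 843, 839 and 883 CPM for the 10 genes together in these cells. They gave 20.3 to 28.2 CPM per library in secretory-like cells and 18.4 to 29.7 CPM in basal-like cells, so no ciliated-like library overlapped with these. The unnamed cluster with ciliated markers was higher still, at 1116, 1267, 1225 and 1086 CPM in libraries 1 to 4. Gated deuterosomal cells, described below, also stood above ciliated-like cells in library 1, at 808 CPM. Cfap298 provided 45.1% of the member UMIs of ciliated-like cells, Zmynd10 16.2% and Dnaaf3 12.1%.

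Members that work in the cytoplasm with chaperones came at very different levels. Zmynd10, a MYND zinc-finger protein needed for stable dynein heavy chains, was measured in ciliated-like cells at 98.7, 140, 150 and 148 CPM in order of library, against 0.364 to 0.895 CPM in secretory-like cells and 0.562 to 1.06 CPM in basal-like cells. Library 1 was lowest for Zmynd10 and the others lay close together. Dnaaf3, a cytoplasmic assembly factor, stood at 88.9, 101, 112 and 87.5 CPM in ciliated-like cells, against 0.749 to 0.852 CPM in secretory-like cells and 0.822 to 2.06 CPM in basal-like cells. Dnaaf1, a leucine-rich repeat protein, stood at 38.3, 44.2, 58.0 and 53.0 CPM in ciliated-like cells, against 0 to 0.182 CPM in secretory-like cells and 0 to 0.398 CPM in basal-like cells. For each of these 3 genes the lowest ciliated-like library was far above the highest library of the other 2 classes.

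Dnaaf5, a HEAT-repeat protein, Spag1, a tetratricopeptide co-chaperone, and Dnaaf2, a PIH-domain protein that works with Hsp90 and Hsp70, had a smaller gap. Dnaaf5 stood at 40.4, 48.7, 52.9 and 39.3 CPM in ciliated-like cells, against 2.86 to 4.05 CPM in secretory-like cells and 3.15 to 3.94 CPM in basal-like cells. Spag1 stood at 36.8, 40.0, 42.3 and 37.9 CPM in ciliated-like cells, against 4.61 to 5.96 CPM in secretory-like cells and 1.97 to 3.18 CPM in basal-like cells. Dnaaf2 was the lowest member in ciliated-like cells, at 8.47, 7.86, 9.46 and 8.15 CPM, against 0.213 to 0.729 CPM in secretory-like cells and 0.274 to 0.398 CPM in basal-like cells. In secretory-like cells Spag1 was second to Cfap298, whereas in ciliated-like cells 5 members stood above it, with libraries pooled in both. One UMI stands for one captured transcript, so these orders are of molecules captured at the 3' end.

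Members linked to transport or attachment of finished arms were low to moderate. Ccdc103, an oligomer that binds microtubules and helps arms attach, stood at 26.6, 43.0, 32.8 and 54.4 CPM in ciliated-like cells, against 0.128 to 0.231 CPM in secretory-like cells. Daw1, whose algal counterpart in Chlamydomonas links outer arms to intraflagellar transport, stood at 19.1, 24.3, 20.7 and 17.0 CPM in ciliated-like cells, against 0.0576 to 0.156 CPM in secretory-like cells. Both were at or below 0.411 CPM in every basal-like library.

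The remaining pair, Cfap298 and Cfap300, are needed for outer and inner arms and are less well understood. Cfap298 stood at 307, 377, 350 and 424 CPM in ciliated-like cells, against 9.89 to 16.7 CPM in secretory-like cells and 9.59 to 19.0 CPM in basal-like cells. Cfap300 stood at 15.1, 15.7, 10.9 and 14.4 CPM in ciliated-like cells, against 0.156 to 0.576 CPM in secretory-like cells and 0.375 to 1.58 CPM in basal-like cells. Cfap298 had the highest level of any member in each named class, and outside ciliated-like cells it was the only member above 10 CPM in secretory-like and basal-like cells when libraries were pooled.

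**Figure D1:**
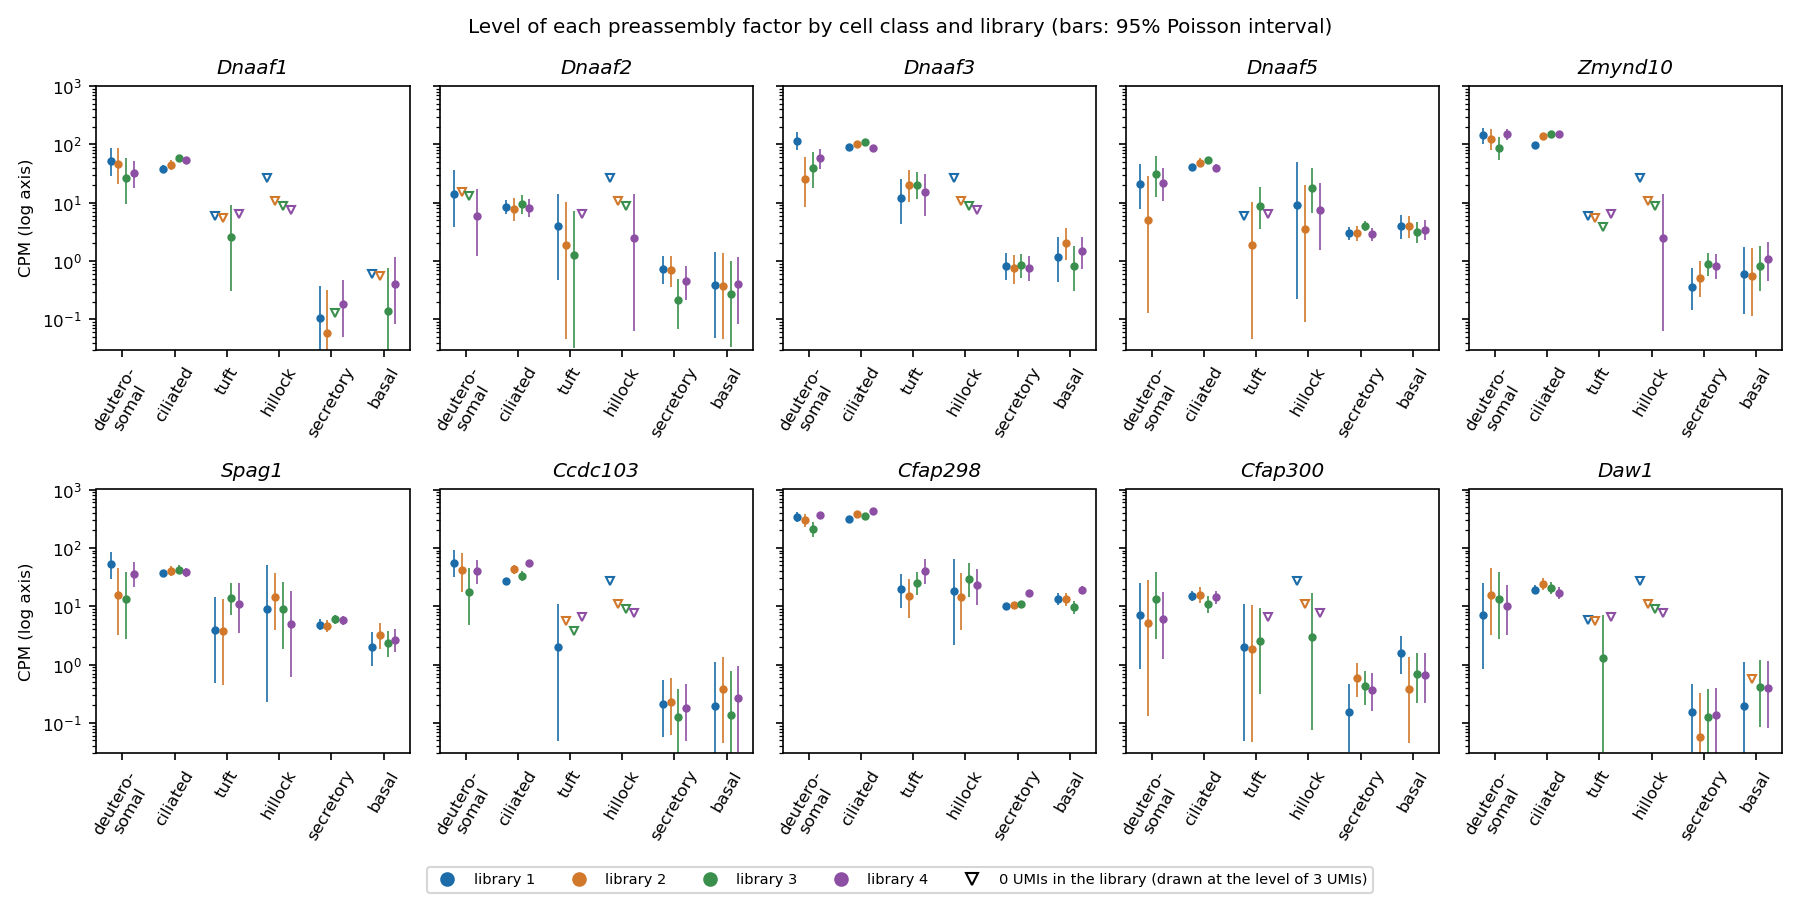
Each panel shows the level of 1 member in CPM (log axis) by cell class, with 1 point per library and its 95% Poisson interval, and open triangles for libraries with 0 UMIs drawn at the level of 3 UMIs. The ciliated points of each member lie above its secretory and basal points, Dnaaf3 is also raised in tuft-like cells, and Cfap298, Dnaaf5 and Spag1 keep a measurable level in secretory-like and basal-like cells.

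Detection per cell followed the levels. Cfap298 had a UMI in 65.6% of ciliated-like cells (Clopper-Pearson interval 64.1 to 67.1), against 6.47% of basal-like cells (5.81 to 7.18), with median depths of 2764 and 4079.5 UMIs. Zmynd10 was detected in 37.6% of ciliated-like cells and 0.39% of basal-like cells. The lowest share was that of Dnaaf2, in 3.45% of ciliated-like cells and 0.175% of basal-like cells. With each cell thinned to 1000 UMIs, at least 1 member was detected in 57.2% of ciliated-like cells (55.5 to 58.8), against 2.38% of basal-like (1.98 to 2.83) and 2.43% of secretory-like cells. The thinning left out 491 ciliated-like, 41 basal-like and 20 secretory-like cells that were shallower, and the unthinned shares were 84.6%, 10.7% and 24.2%. Intervals here cover counting error only.

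The low UMIs outside ciliated-like cells did not have the composition of ciliated-like cells. Spag1 made up 4.91% of member UMIs in ciliated-like cells (4.54 to 5.29) and 22.8% in secretory-like cells (20.9 to 24.7). Dnaaf5 made up 5.57% in ciliated-like cells (5.19 to 5.98) and 13.9% in secretory-like cells (12.4 to 15.5). Zmynd10 went the other way, with 16.2% in ciliated-like cells (15.6 to 16.9) and 2.86% in secretory-like cells (2.16 to 3.70), as did Dnaaf1, with 5.95% and 0.364%. The shares of these 4 genes did not overlap between ciliated-like and secretory-like cells in any library. Over libraries, the shares of Dnaaf3, Ccdc103 and Daw1 did not overlap either, but those of Cfap298, Cfap300 and Dnaaf2 did. Cfap298, the largest share, ran from 41.7 to 48.0% in ciliated-like cells and from 46.4 to 59.4% in secretory-like cells. How much of each low level was free RNA was not tested.

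Ratios were then taken within each library, ciliated-like over all other named epithelial cells, as log2 with 1 CPM added, and a gene was called where the ratio was at least 2-fold the same way in 4 of 4 libraries. All 10 members were called higher, where 22.0% of the 12689 genes with at least 50 UMIs were called higher and 5.22% lower. The members' median log2 ratio was 4.45, against 0.49 over all genes. The ratio was highest for Zmynd10 (median 6.33, range over libraries 6.15 to 6.55), then Dnaaf1 (5.45), Dnaaf3 (5.38), Ccdc103 (5.02), Cfap298 (4.77) and Daw1 (4.13). It was lower for Cfap300 (3.43), Dnaaf5 (3.36), Spag1 (2.81) and Dnaaf2 (2.55, range 2.44 to 3.06). The 4 libraries of Zmynd10 did not overlap with those of any other member, whereas the ranges of Dnaaf1, Dnaaf3 and Ccdc103 overlapped, as did those of Spag1 and Dnaaf2. The added 1 CPM shapes this order where other epithelial cells hold less than 1 CPM. Without it, pooled levels would put Dnaaf1 (46.9 against 0.117 CPM) above Zmynd10 (128 against 0.687). Daw1 (19.7 against 0.163 CPM) would stand above Cfap298 (356 against 12.9), and Dnaaf2 (8.49 against 0.497) above Dnaaf5 (44.0 against 3.40).

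**Figure D2:**
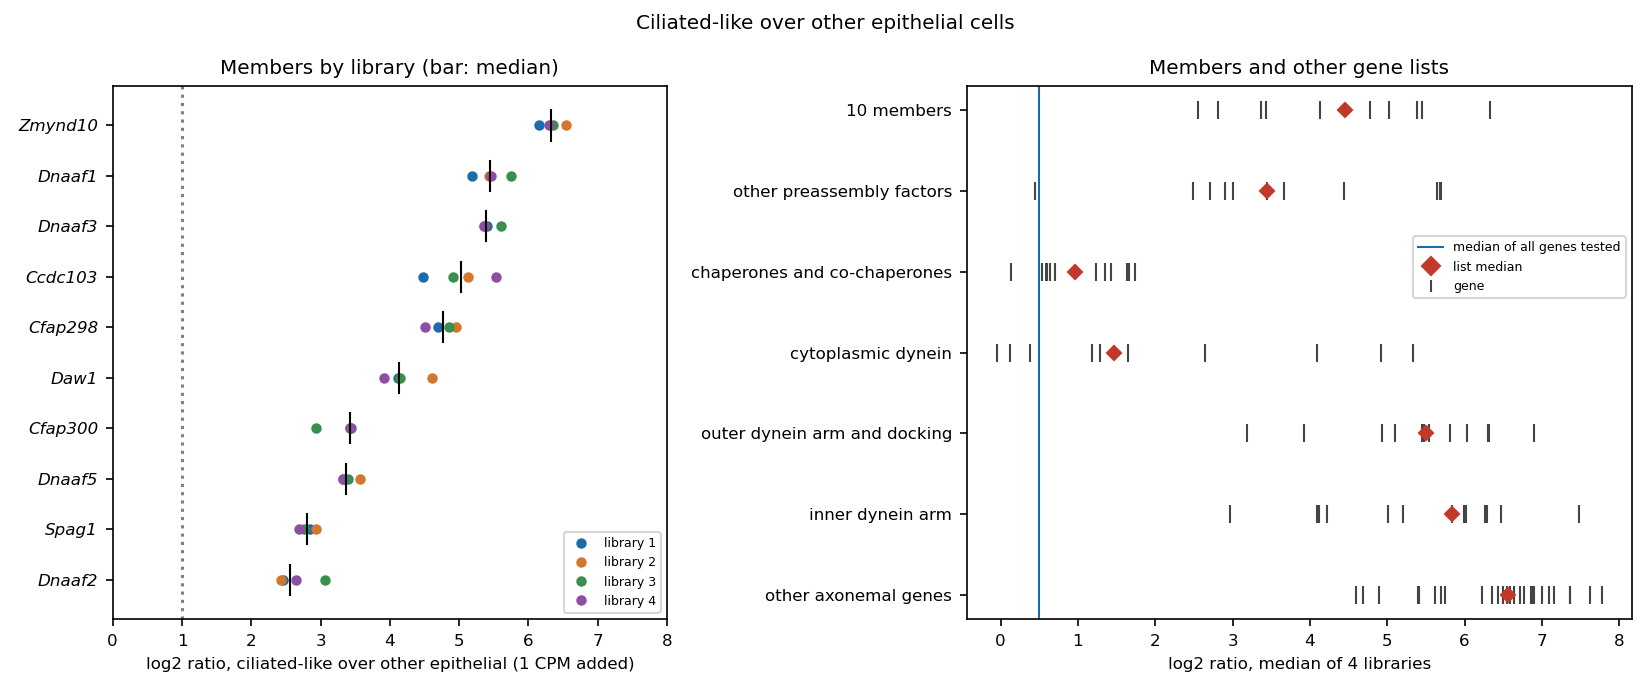
The left panel gives the log2 ratio of ciliated-like over other epithelial cells for each member, 1 point per library with a bar at the median and a dotted line at 2-fold. The right panel gives the median ratio of each gene in the members and 6 other lists, where the list medians run from 0.97 for chaperones to 6.57 for other axonemal genes, with the members at 4.45.

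The other genes of the pathway were read from lists chosen with earlier results of these data known. Of 12 other preassembly factors measured, 10 were called higher, with a median log2 ratio of 3.45 over the 11 that were detected. Pih1d2, which partners Spag1 in a chaperone complex of human cells, had a ratio of 5.70, and Lrrc6 (Dnaaf11), a partner of Zmynd10, 5.68. Rpap3, a subunit of the general R2TP chaperone complex, was called with 2.49. Pih1d1, the PIH subunit of that complex, was not called, at 0.44, and Dnaaf6 had 0 UMIs in the compared cells. Of 12 general chaperones and co-chaperones, 5 were called higher, with a median of 0.97. Among them were the co-chaperone Stip1 (1.74) and the stress-inducible Hsp90 gene Hsp90aa1 (1.64), whereas the constitutive Hsp90ab1 (0.58) and the Hsp110-family gene Hspa4 (0.13) were not called.

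The median ratios of dynein arm genes, which the factors assemble, were above that of the members. Of 13 outer arm and docking genes, 12 were called higher, with a median of 5.51 over the 12 detected, from the heavy chain Dnah5 (6.90) to the light chain Dnal4 (3.18). All 13 inner arm genes were called higher, with a median of 5.83, led by the light chain Dnali1 (7.48). All 28 other axonemal genes were called higher, with a median of 6.57, from Cfap126 (7.77) to Gas8 (4.59). Of 10 cytoplasmic dynein genes, 7 were called higher, with a median of 1.47. In that list Dync2i1 (5.33) and Dync2li1 (4.92) of the intraflagellar transport motor stood far above Dync1h1 (-0.05), the heavy chain of the general cargo motor. In a list of 5 transcription factors, 3 were called higher, among them the ciliogenesis factors Rfx3 at 4.04 and Rfx2 at 4.01. Rfx1 (1.23) was not called, nor was Rfx5 (0.19), a family member known for regulating MHC class II genes. Of the 3 genes mutated in the lines, Spef2 and Cfap54 were called and Cfap221 was not. Cfap221 missed the call through library 3 alone, with log2 ratios of 3.50, 3.55, 0 and 3.39 in order of library. It had 138 UMIs in ciliated-like cells and 2 in other epithelial cells.

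Deuterosomal cells were taken by a gate, as cells with a UMI of at least 3 of 8 deuterosomal markers. The gate held 76 cells, 16, 11, 19 and 30 in libraries 1 to 4. It is a range rather than a cell type, since 53 of the cells had exactly 3 markers, 407 cells had 1 marker fewer, and 43 of the 76 came from the clusters with markers of more than 1 lineage. Depth differed, with median UMIs of 14138.5 per gated cell and 2764 per ciliated-like cell, and 8 of 8 secretory markers were detected in both. The secretory markers summed to 100937 to 209898 CPM per library in gated cells and to 12874 to 16317 CPM in ciliated-like cells, with Scgb1a1 39.8-fold higher in gated cells. The part of secretory RNA in the gated cells was not tested.

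By library, in order, the members summed to 808, 575, 448 and 716 CPM in gated cells, against 679, 843, 839 and 883 CPM in ciliated-like cells. The gated level was lower in libraries 2, 3 and 4 and higher in library 1. Per 1000 UMIs of the 28 other axonemal genes, the members gave 174, 200, 146 and 177 UMIs in gated cells, against 132, 140, 127 and 137 UMIs in ciliated-like cells. On this scale the gated cells were higher in 4 of 4 libraries, and the groups did not overlap, with pooled values of 174 (95% counting interval 162 to 188) and 134 (131 to 136). The axonemal genes themselves were lower in gated cells, with 27 of 28 ratios below 1 and 5 called lower. In the 33 gated cells outside mixed clusters the values were 163, 94.6, 129 and 176, so that library 2, with 14 member UMIs, lay below its ciliated-like cells. In the 23 gated cells with at least 4 markers they were 176, 236, 233 and 189. Pooled over libraries, the 43 gated cells inside mixed clusters gave 182 and the 33 outside gave 159. A sum of ciliated-like and secretory-like RNA with the axonemal level of the gated cells would give 135 member UMIs per 1000, and the mixed cluster itself gave 145. Whether mixing of RNA or cells sets the gated values was not tested.

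Single members differed in this comparison. Dnaaf5 stood at 20.9, 5.14, 30.8 and 21.8 CPM in gated cells, against 40.4, 48.7, 52.9 and 39.3 CPM in ciliated-like cells, a ratio of 0.468 (95% counting interval 0.301 to 0.696) on 25 and 735 UMIs. It was the only member called, being at least 2-fold lower pooled and lower in 4 of 4 libraries, where 5.38% of 10385 genes were called lower and 3.55% higher. Zmynd10 stood at 143, 123, 87.9 and 148 CPM in gated cells, against 98.7, 140, 150 and 148 CPM in ciliated-like cells, a ratio of 1.03 (0.87 to 1.21). The interval also included 1 for Ccdc103 (1.05, 0.77 to 1.42), Spag1 (0.83), Dnaaf1 (0.81), Dnaaf2 (0.68) and Cfap300 (0.52). Cfap298 had a ratio of 0.89 (0.80 to 0.99), Dnaaf3 of 0.66 (0.52 to 0.83) and Daw1 of 0.54 (0.29 to 0.94), none of them 2-fold apart pooled. Dnaaf3 was split, at 115 CPM in gated cells of library 1 and 25.7 to 57.3 CPM in libraries 2 to 4, against 87.5 to 112 CPM in ciliated-like cells. The members' median ratio was 0.74, that of the other axonemal genes 0.64 and that of all genes 0.94. The call on Dnaaf5 did not hold with cells thinned to 1000 UMIs, without library 2 or in cells outside mixed clusters, where 0 members were called.

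**Figure D3:**
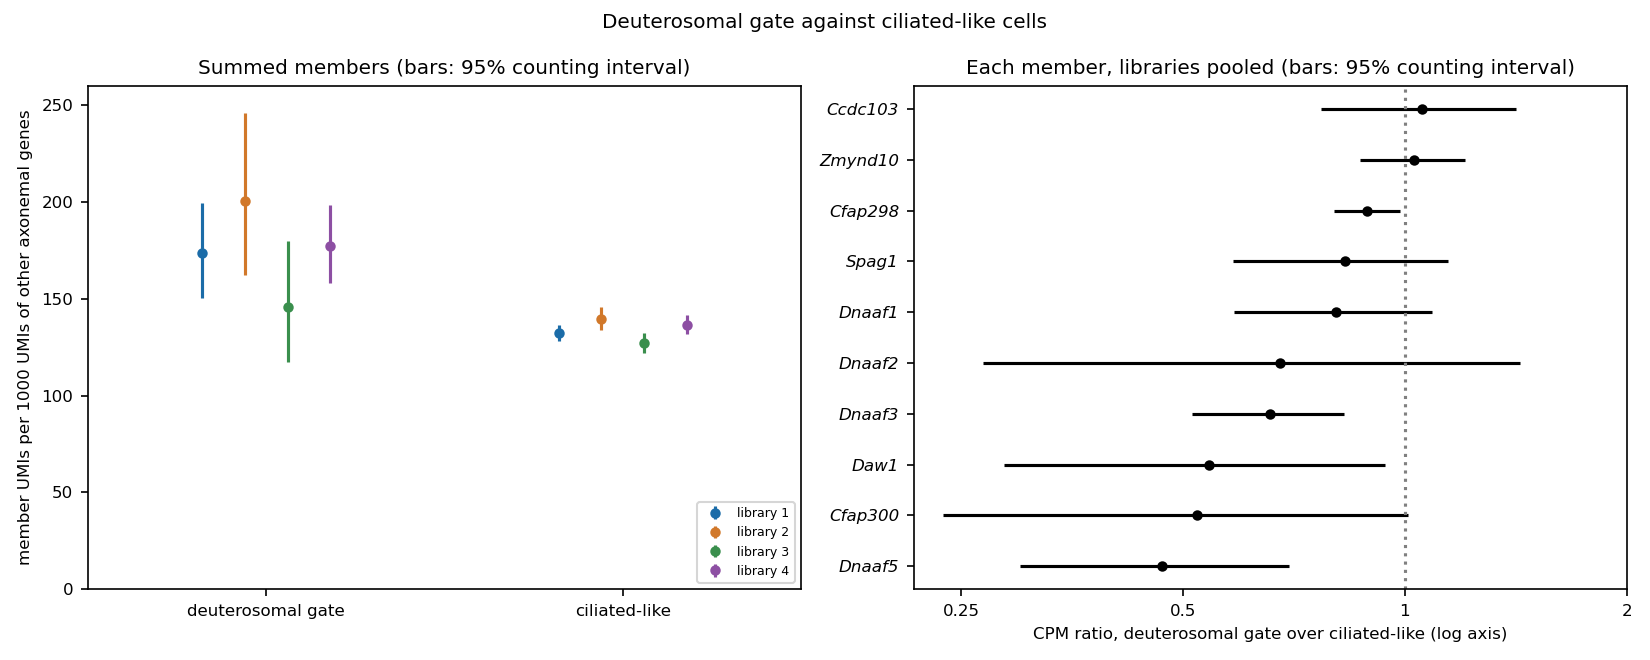
The left panel gives member UMIs per 1000 UMIs of 28 other axonemal genes in gated deuterosomal cells and in ciliated-like cells, 1 point per library with its 95% counting interval. The right panel gives the CPM ratio of gated over ciliated-like cells for each member (log axis, libraries pooled), from 0.468 for Dnaaf5 to 1.05 for Ccdc103.

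Within ciliated-like cells the members were compared between clusters 7 and 3. Cluster 7 held 1320 deep cells (median 7335.5 UMIs) and cluster 3 held 2350 shallow cells (median 1950 UMIs). Ccdc103 stood at 17.3, 23.9, 21.6 and 43.5 CPM in the deep cluster, against 49.3, 65.8, 59.3 and 72.8 CPM in the shallow cluster of libraries 1 to 4. Dnaaf5 stood at 46.1, 63.9, 60.8 and 45.5 CPM in the deep cluster, against 27.4, 31.7, 37.0 and 31.9 CPM in the shallow cluster. For both genes the libraries of the clusters did not overlap, and the directions were opposite. Dnaaf1 did not overlap either, with 32.3 to 50.1 CPM in the deep cluster and 53.1 to 73.9 CPM in the shallow cluster. Besides Dnaaf5, Dnaaf3 (median log2 ratio 0.26) and Spag1 (0.22) were higher in the deep cluster in 4 of 4 libraries. Dnaaf1 (-0.68), Zmynd10 (-0.56), Cfap298 (-0.73), Cfap300 (-0.60) and Daw1 (-0.48) were lower in 4 of 4, like Ccdc103 (-1.42), and Dnaaf2 (-0.30) was higher in 1 library. Of the 28 other axonemal genes, 4 were higher and 14 lower in 4 of 4 libraries. Neither overlap nor direction in 4 of 4 libraries was counted over all genes. The members' median was -0.52, that of the other axonemal genes -0.33 and that of all genes 0.10. No member was 2-fold apart in 4 of 4 libraries, where 4.69% of 10193 genes were that much higher and 2.95% that much lower. The members were not used for clustering, but genes that vary with them were. Ciliated markers summed to 6835 to 8958 CPM in the deep cluster, against 12689 to 14188 CPM in the shallow cluster, while secretory markers summed to 11757 to 15320 CPM in the deep cluster and 14125 to 17547 CPM in the shallow cluster. On the axonemal scale the summed members gave 131 UMIs per 1000 in the deep cluster and 139 in the shallow cluster, with libraries pooled. In order of library the deep cluster gave 134, 136, 121 and 132, and the shallow cluster 132, 142, 139 and 143. Library 1 thus went the other way.

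**Figure D4:**
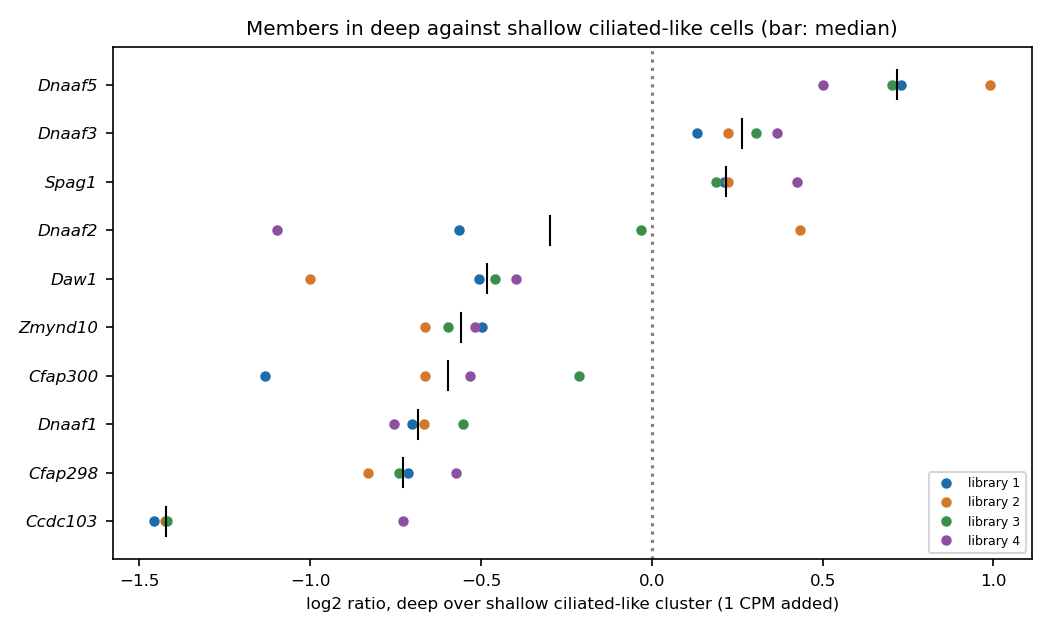
Points give the log2 ratio of each member in the deep over the shallow ciliated-like cluster, 1 per library, with a bar at the median and a dotted line at 0. Dnaaf5, Dnaaf3 and Spag1 lie to the right of 0 in 4 of 4 libraries and 6 members to the left. The share of all genes with the same direction in 4 of 4 libraries was not counted.

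Tuft-like cells, the chemosensory cells of the trachea, held a member that the other non-ciliated cells mostly lacked. This was picked out after its values were seen. Dnaaf3 stood at 11.8, 20.3, 20.3 and 14.96 CPM in tuft-like cells of libraries 1 to 4, against 1.18, 2.06, 0.822 and 1.46 CPM in basal-like cells, and the groups did not overlap. It had a UMI in 15.2% of 263 tuft-like cells (11.1 to 20.1) and in 0.643% of basal-like cells (0.443 to 0.902), with median depths of 5978 and 4079.5 UMIs. Zmynd10 had 0 UMIs in tuft-like cells, which allows up to 1.30 CPM at 3 counts, and Dnaaf1 had 2 UMIs, in 1 cell. Ciliated markers summed to 83.0 to 173 CPM in tuft-like cells, close to the 104 to 166 CPM in basal-like cells. The other axonemal genes differed, with sums of 80.6 to 160 CPM in tuft-like cells and 30.7 to 39.7 CPM in basal-like cells, without overlap. Whether RNA of ciliated cells adds to the Dnaaf3 level of tuft-like cells was not tested. Of the 2 tuft-like clusters, cluster 14, with 1725 to 2958 CPM of secretory markers, had 39.5 CPM of Dnaaf3 on 27 UMIs. Cluster 16, with 247992 to 288340 CPM of secretory markers, had 8.01 CPM on 13 UMIs. Cfap298 was also higher in cluster 14, at 42.4 CPM on 29 UMIs, than in cluster 16, at 17.3 CPM on 28 UMIs. Tnni3 overlaps Dnaaf3 on the same strand in the GENCODE vM21 annotation of GRCm38, so UMIs of these genes may be split between them. Tnni3 gave 1.73 CPM in tuft-like cells and 16.6 CPM in ciliated-like cells. Other same-strand overlaps were Ccdc103 with Fam187a and Gm26668, Dnaaf2 with Gm49383 and Gm49384, and Spag1 with Gm23754. Fam187a gave 5 UMIs in ciliated-like cells, and Gm49383 and Gm49384 gave 0.

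Hillock-like cells, a stratified epithelial class, held the same 3 leading members as secretory-like and basal-like cells. Cfap298 stood at 22.3 CPM, Dnaaf5 at 9.80 CPM and Spag1 at 8.91 CPM with libraries pooled, on 25, 11 and 10 UMIs. Dnaaf1, Dnaaf3, Ccdc103 and Daw1 had 0 UMIs among 147 cells, which allows up to 2.67 CPM each.

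In ciliated-like cells the members differed between libraries about as much as all genes did. The highest library was 1.15 times (Spag1) to 2.04 times (Ccdc103) the lowest, with a median of 1.41, against 1.38 over 8987 genes with at least 100 UMIs. Only Ccdc103 reached 2-fold, with library 1 lowest at 26.6 CPM (95% Poisson interval 22.8 to 30.9) and library 4 highest at 54.4 CPM (47.6 to 62.0), where 7.96% of genes reached it. Library 1, which had the deepest ciliated-like cells, was the lowest in CPM for 5 of 10 members. On the axonemal scale it was the lowest for 1 member and the highest for 4. The share of all genes lowest in library 1 was not counted. Ccdc103 was also lower in the deep cluster, and a part played by depth was not tested. Within the deep cluster the highest library for Ccdc103 was 2.51 times the lowest, and within the shallow cluster 1.48 times. Per 1000 axonemal UMIs no member reached 2-fold, where 10.1% of genes did, and Ccdc103 was at 1.69 times. Nor did any member reach 2-fold in CPM with all variable genes used for clustering, without doublet removal, with ciliated cells taken by a marker gate, after thinning, with the unnamed cluster added, or without library 1 or library 4. Cfap300 had the widest range per 1000 axonemal UMIs, 1.77 times, from 1.66 in library 3 to 2.94 in library 1.

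Levels of the mutated genes bear on what the libraries are, without naming them. In ciliated-like cells Cfap221 had 0 UMIs in library 3, against 9.83 to 11.2 CPM in the others, and Cfap54 was at 4.12 CPM in library 2, against 108 to 122 CPM in the others. Spef2 ranged over 142 to 249 CPM in the 4 libraries.

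**Figure D5:**
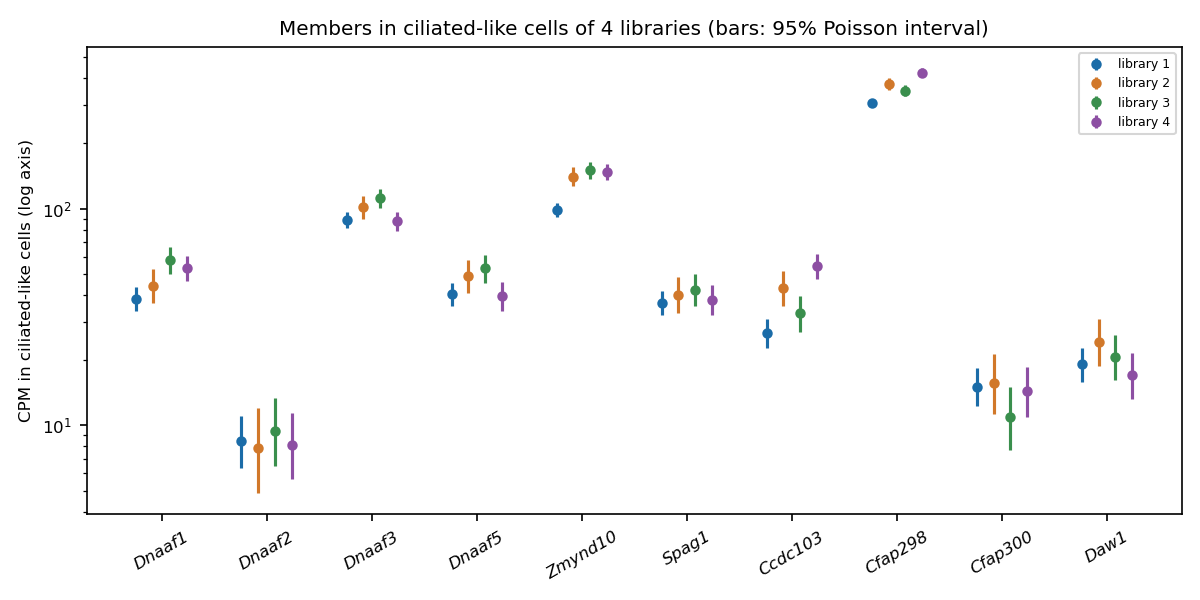
Points give each member's level in ciliated-like cells in CPM (log axis) for libraries 1 to 4, with 95% Poisson intervals. The 4 libraries lie within 2-fold of each other for 9 members, with Zmynd10 running from 98.7 to 150 CPM, and Ccdc103 runs from 26.6 to 54.4 CPM.

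Genes with the pattern most like the members were ranked by Pearson's r of log2(CPM + 1) over 19 sums of a class in a library with at least 20 cells, among 11849 other genes. These points share libraries and depth, and ciliated-like cells set most of the range, so r is a description. For the summed members the highest were Ccdc189 (0.991), Cep290 (0.989), Swi5 (0.989), Elof1 (0.988), Zc2hc1a, Cetn2, Mycbp and Slc35a2 (0.984). For single members they included Ttc34 with Dnaaf1 (0.998), Cfap46 with Zmynd10 (0.997), Stk33 with Daw1 (0.997), Elof1 with Cfap298 (0.991) and Iqce with Dnaaf3 (0.988). Lower values were reached by Fbxw9 with Dnaaf2 (0.968), Pcbd2 with Spag1 (0.967), Gm1673 with Cfap300 (0.961) and Ccdc162 with Dnaaf5 (0.931). Among the members themselves r ran from 0.523 between Dnaaf3 and Dnaaf5 to 0.995 between Dnaaf1 and Daw1.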

How the data were processed

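Single-cell 3' RNA-seq was made from 4 libraries of mouse trachea, 1 per genotype. The deposited matrix holds raw UMI counts per gene and barcode, written by Cell Ranger 6.0.1 per the file headers, with build GRCm39 per the submitters' processing notes. Free RNA was not subtracted here, and the annotation release is not given in the sources used here.

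Cells with at least 300 genes and at most 20% mitochondrial UMIs were kept (20359 of 21667). An automatic doublet threshold marked 0.0442% of cells and was set aside. The highest-scoring 0.8% per 1000 cells of each library were removed instead (888 cells). Counts scaled to 10000 per cell were clustered with scanpy 1.11.5 and leidenalg 0.10.2 (2000 genes, 30 components, 15 neighbours, resolution 1), leaving out 22 preassembly factors. A cluster name needed 3 markers found in at least 10% of its cells and at least 2-fold above the 25th percentile of all clusters. Clusters with 75% of the markers of another lineage were called mixed, and those led by other markers, or below their library's median depth divided by 3 with no marker of their own among the top 10 genes, stayed unnamed. The naming rule was set after the data were seen.

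The planned comparison of genotypes was not made, as library numbers are not tied to genotypes. UMIs were summed per class and library and given as CPM with exact 95% Poisson intervals. Each genotype had 1 library, so no test over samples was made and no p-value is given. Ratio calls were also run on simulated data, and the outcome is not reported here. The members and gene lists were drawn up by function, with earlier results of these data known. The text names the 10 members, up to 4 genes of each other list from the 3 highest and 3 lowest ratios, the 3 mutated genes, and the genes most like the members, of which 1 is not reported here. Alternatives covered cell classes, doublets, mitochondrial and depth limits, thinning, pseudocount, averaging, the compared cells, the gate and leaving out a library.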

Additional observations from a re-analysis of the deposited data

Results flagged for a closer look

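A feature named eGFP, for green fluorescent protein, was counted in the matrix, although the labels of the samples used here name no reporter. It was outside the comparisons above and stands out by its level in ciliated-like cells. It gave 1374 CPM in library 1 (95% Poisson interval 1345 to 1402, 8919 UMIs), 90.9 CPM in library 2 (79.9 to 103, 243 UMIs) and 1954 CPM in library 4 (1912 to 1997, 8153 UMIs), and 0 UMIs in library 3, which allows up to 0.887 CPM. A UMI was found in 92.4% of ciliated-like cells of library 1, 24.7% of library 2 and 92.1% of library 4.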

How the results depend on the processing

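The 10 members were called higher in ciliated-like cells under each of the 15 alternatives run. Their median log2 ratio was 4.29 to 4.67 under 14 of these, those leaving out 1 library included, and 2.81 with 5 CPM added, which lowers ratios by construction. No result was reversed. Summed member levels in ciliated-like cells of libraries 1 to 3 moved past their counting interval to 707, 902 and 881 CPM with all variable genes used for clustering, and to 706, 907 and 890 CPM without doublet removal. They moved to 707, 907 and 881 CPM with the unnamed ciliated-marker cluster added, an alternative chosen after seeing the data. In libraries 1 to 4 they were 749, 904, 883 and 966 CPM after thinning and 749, 933, 935 and 972 CPM as a mean over cells. Library 3 was at 789 CPM with only cells of at least 2000 UMIs. Of members called in deuterosomal over ciliated-like cells, 1 in the report, there were 2 with all variable genes, without doublet removal, with a 10% mitochondrial maximum, with ciliated cells taken by a marker gate and with the unnamed cluster added. There were 3 with a gate of 4 markers, and 0 after thinning and outside mixed clusters, the last also chosen after seeing the data. Leaving out 1 library gave 0 (without library 2) to 3 (without library 1). Of members at least 2-fold apart between libraries, 1 in the report, there were 0 with all variable genes, without doublet removal, with the marker gate, after thinning, per 1000 axonemal UMIs and with the unnamed cluster added, and 0 to 1 leaving out 1 library (0 without library 1 and without library 4). The causes were not tested. The share of all genes called higher was 16.3% with a minimum of 1 UMI. Of 88 alternative values, 49 stayed within their limits and 39 moved. Deuterosomal clusters could not serve as an alternative, since none earned the name. No paired analysis was possible because each genotype had 1 library and the labels give no shared replicate numbers. Depth limits the deuterosomal values, with 7 to 385 UMIs per member.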
